A study of Caenorhabditis elegans with 2 samples.

Results

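The subject is 10 genes of Caenorhabditis elegans that set sex and equalise X-linked gene expression between the sexes. They are xol-1, sdc-1, sdc-2, sdc-3, dpy-21, dpy-26, dpy-27, dpy-28, dpy-30 and mix-1. All 10 were found by symbol among 19973 protein-coding genes on the nuclear chromosomes of WBcel235, the assembly that is also called ce11. The genes were chosen by name with earlier results of these peak lists known, so their values are given as a description and no test was made on them. 3 of them lie on the X chromosome (xol-1, sdc-1 and sdc-2) and 7 on autosomes.

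Binding of PAX-1, a paired-domain transcription factor, was mapped in whole late embryos by chromatin immunoprecipitation and sequencing (ChIP-seq). The worms were of strain OP117, with the genotype unc-119(ed3) III; wgIs117, and made an eGFP-tagged PAX-1 from an inserted transgene. There was 1 group with 2 biological replicates, each with the sexes pooled, and the antibody target is labelled pax-1. The labels do not name the promoter of the transgene. A peak in whole embryos does not tell in which cells or in which sex the protein was bound.

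In C. elegans, animals with a pair of X chromosomes become hermaphrodites and animals with a single X become males. The gene xol-1 is the switch that reads the X dose early in the embryo. Where xol-1 is low, the SDC proteins load a condensin-like complex onto both X chromosomes and lower their transcription. The complex then binds X at recruitment sites that share a short sequence motif and spreads from them. The same SDC proteins also repress the male gene her-1.

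4 peak lists on ce11 were used. The pooled list, called on both replicates together, held 30000 peaks, and the lists of replicates 1 and 2 held 30000 and 29397. By the authors' listing, the pooled and replicate lists hold peaks plus background. An entry in them, called a peak here, is therefore not by itself a site of binding. The thresholded list was the top of the pooled one: its 714 peaks took pooled ranks 1 to 714 by signal, and the lowest signal was 58.3. Rank 1 is the highest signal in a list. The signal is the authors' value and its scale is unstated, so it was compared within a list only. No read counts were given, and the depth of the samples is unknown.

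None of the 10 genes was overlapped by a thresholded peak, where 1.82% of all protein-coding genes were. None had a thresholded summit within 1000 bp of an annotated start, where 3.48% of all protein-coding genes did. 2 of the 10, xol-1 and dpy-28, had a thresholded peak within 10 kb, against 15.5% of all protein-coding genes. By linkage, this was 1 of 3 X-linked members and 1 of 7 autosomal members, beside 13.1% of all X-linked and 15.9% of all autosomal genes. With so few members these counts were near the background. The members were also longer than most genes, with a median length of 7.92 kb against 2.03 kb over all genes, so their windows covered more sequence.

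Lower peaks were common around the members. A pooled peak overlapped 7 of the 10 genes, against 47.8% of all protein-coding genes, and all 10 had a pooled peak within 10 kb, against 96.8%. In all, 84 pooled peaks lay in or within 10 kb of a member, of which 24 overlapped it. The median signal of the 84 was 22.0 and their median rank 12248.5. Their median −log10 q was 0.0482, and that of all pooled peaks 0.0382, so most of them were weak and could not be told from background. For the highest pooled peak at the start it was 0.245 at xol-1, 0.263 at dpy-30, 0.221 at dpy-28 and 0.0345 at dpy-21. It was higher at dpy-27 (1.73), mix-1 (1.69), sdc-1 (1.41) and sdc-3 (1.17). The highest pooled peak per member had a median rank of 1195.5, where the median over all genes with a pooled peak within 10 kb was 3353. As above, the members were longer than most genes, and gene length was not matched in this rank or in the count of overlapped genes.

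**Figure D1:**
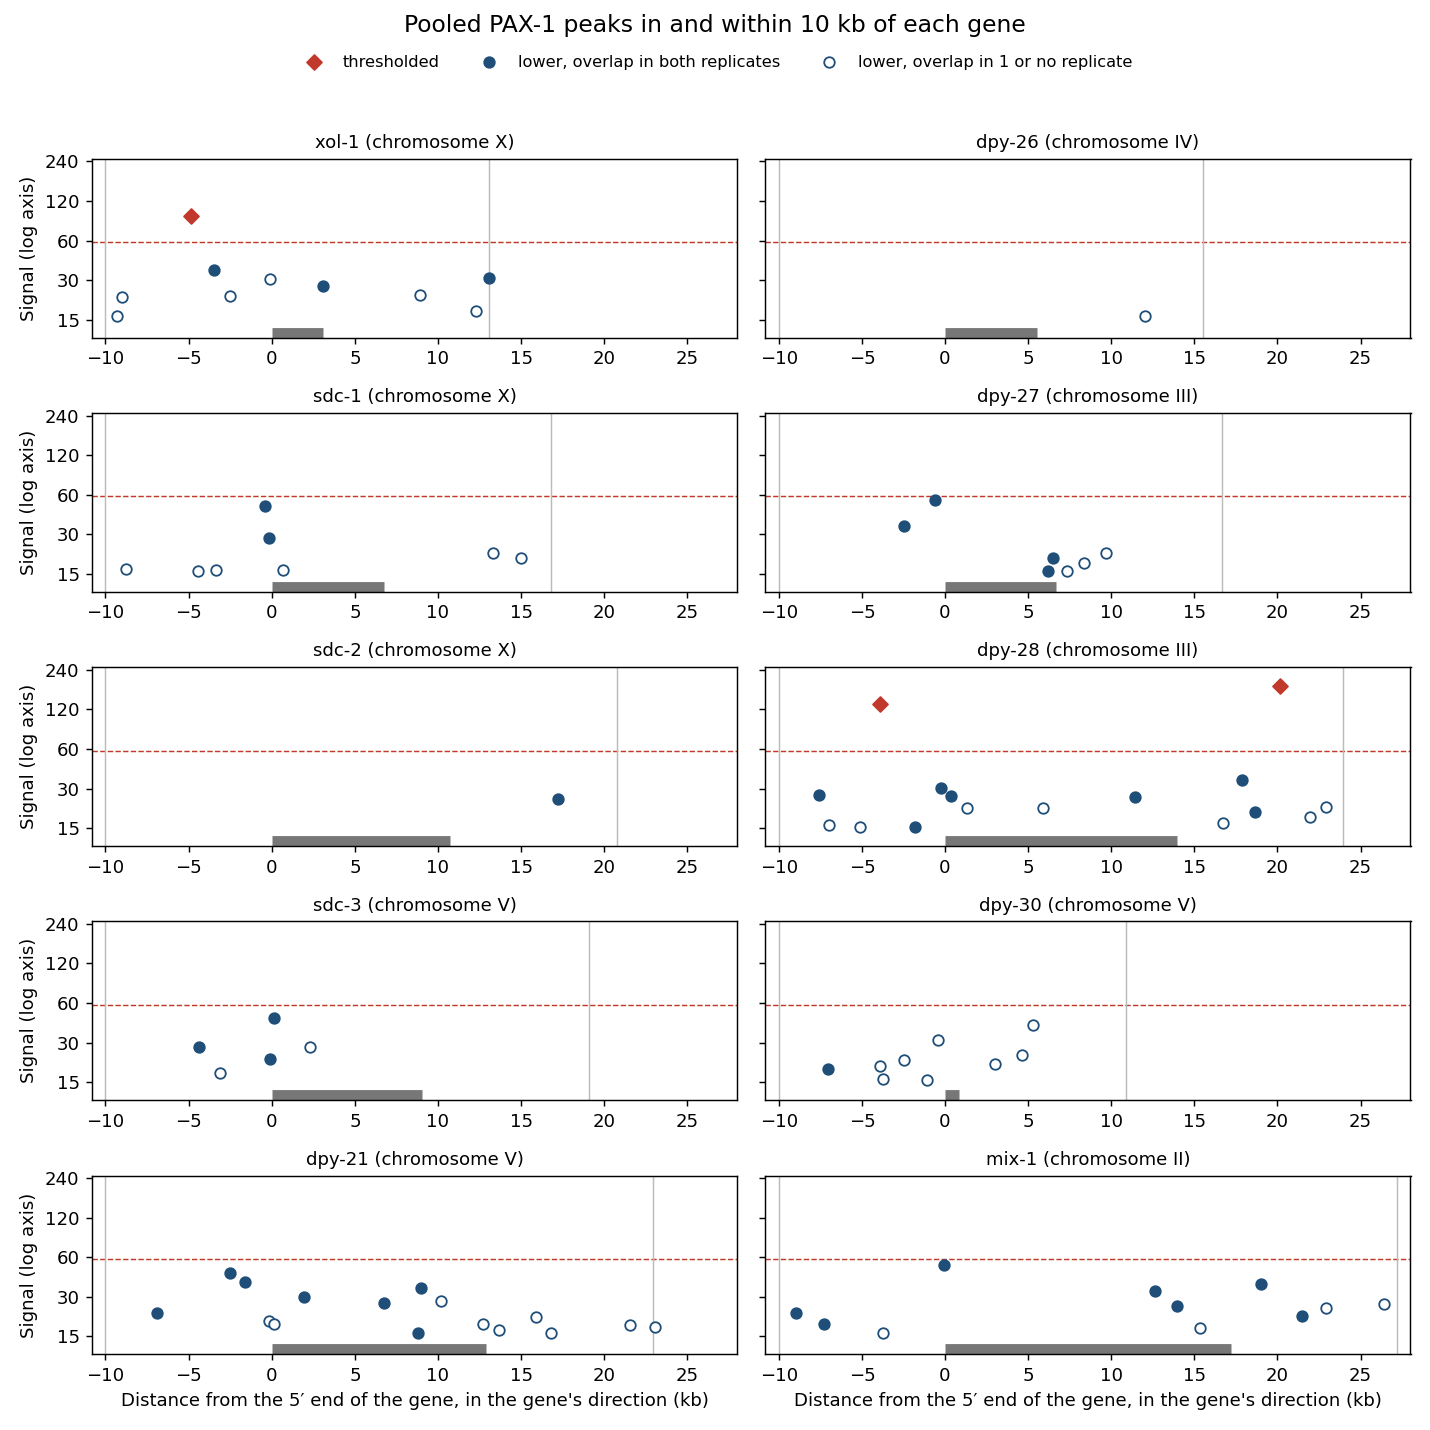
Signal (log axis) of every pooled peak in or within 10 kb of each of the 10 genes, against the distance of its summit from the 5′ end of the gene in kb, with diamonds for thresholded peaks, filled circles for lower peaks with an overlap in both replicates and open circles for the rest. Grey bars are the genes, grey lines the window edges and the dashed line the lowest thresholded signal of 58.3; only xol-1 and dpy-28 have peaks above it, and sdc-2 and dpy-26 have 1 pooled peak each.

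The upstream switch xol-1 (WBGene00006962, chromosome X, 8041313 to 8044409, plus strand) had the only thresholded peak within 10 kb of an X-linked member. This intergenic peak spanned 8036268 to 8036611 and ended 4702 bp upstream of the gene, and its summit was 4873 bp from the nearest protein-coding start, that of xol-1 itself. Its signal was 92.2 in the pooled list, at rank 206. The overlapping peak of replicate 1 had a signal of 46.5 at rank 431, and that of replicate 2 a signal of 44.2 at rank 112. It was therefore among the 714 highest peaks of both replicate lists.

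The 75 bp on each side of this summit, chrX:8036365-8036515, are printed from the RefSeq sequence of WBcel235 because they held the core of the recruitment motif of the dosage compensation complex, GCGCAGGG. Capitals mark matches to that core on either strand. The plus strand is given.
xol-1 upstream peak: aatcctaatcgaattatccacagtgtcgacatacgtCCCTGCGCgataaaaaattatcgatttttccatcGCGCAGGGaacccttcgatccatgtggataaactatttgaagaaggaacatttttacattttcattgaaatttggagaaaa
The core occurred here in 2 copies, 1 on the minus strand from 8036401 to 8036408 and 1 on the plus strand from 8036435 to 8036442. These were the only copies in the windows of all 10 genes.

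Windows of the same length around summits gave the background for that core. It was found in 33 of 29981 pooled windows (0.110%) and 12 of 696 nuclear thresholded windows (1.72%). Among thresholded windows it was found in 10 of 102 on X (9.80%) and 2 of 594 on autosomes (0.337%). In the whole sequence, the core occurred 81 times on X (4.57 per Mb), and 13 of these copies lay inside thresholded peaks. On the autosomes it occurred 233 times (2.82 per Mb), and 3 copies lay inside thresholded peaks. The xol-1 upstream peak was 1 of 3 thresholded peaks on X that held 2 or more copies. No autosomal thresholded peak held 2. A match of these letters is no evidence of binding by the complex, which these data did not measure.

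At the start of xol-1 itself the signal was lower. The highest pooled peak there, 102 bp upstream, had a signal of 30.8 at rank 3981. Replicate 1 had a peak 181 bp upstream at rank 2268 (signal 23.7), and replicate 2 a peak 511 bp upstream at rank 16304 (signal 12.2). No replicate 2 peak overlapped the pooled peak at the start. A further pooled peak, 3322 bp upstream of the gene with a signal of 35.9, was supported by both replicates at ranks 4929 and 5517. The next thresholded peak outside the window lay 42.0 kb from the gene.

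The SDC genes encode the proteins that bring the complex to X. The 3 differed in what surrounded them. SDC-1 is a zinc finger protein. The gene sdc-1 (WBGene00004745, chromosome X, 16275763 to 16282534, plus strand) had an intergenic peak from 16275200 to 16275543, with its summit 391 bp upstream of the start. The pooled signal was 49.1 at rank 1108. In replicate 1 it was 21.3 at rank 2926, and in replicate 2 it was 25.3 at rank 894. A neighbouring pooled peak, from 16275404 to 16275747, overlapped it and had a signal of 28.3 at rank 5305. Replicate 2 also had a second peak there, from 16275407 to 16275746 at rank 10414, and replicate 1 had 1 peak at the start. Whether the 2 overlapping pooled peaks are separate sites was not tested. The nearest thresholded peak was 65.8 kb away.

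SDC-2 is the protein that starts assembly of the complex on X in hermaphrodites. The gene sdc-2 (WBGene00004746, chromosome X, 11522707 to 11533450, plus strand) had no peak at its start or in the gene in the pooled list or in either replicate list. Its window of 30.7 kb held 1 pooled peak, 6310 bp downstream in an intron of gcp-2.2, with a signal of 24.9 at rank 8287. The overlapping peaks of replicates 1 and 2 ranked 7552 and 25918. Replicate 2 had another, higher peak in the window, 8055 bp downstream of the gene at rank 11239. No pooled peak lay between 11477726 and 11539759, a gap of 62.0 kb around sdc-2 that 11 protein-coding genes overlapped. Among 4994 such gaps on X, with a median of 1.82 kb, its place by length was 3. In replicate 1 the gap was 60.5 kb and in replicate 2 it was 57.4 kb, and its place on X was 3 in each. The control alignment that entered the peak calls was not analysed here, and its part in this gap was not tested.

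SDC-3, a zinc finger protein, is encoded on an autosome. The gene sdc-3 (WBGene00004747, chromosome V, 15039148 to 15048207, minus strand) had a peak over its start from 15047917 to 15048260, with the summit 118 bp inside the gene in an intron. The pooled signal was 46.0 at rank 1283. The highest peak at the start had a signal of 25.5 at rank 1928 in replicate 1 and of 14.9 at rank 8638 in replicate 2. Both replicate summits were nearer to the start, at 13 and 17 bp. The pooled list held another peak at this start, from 15048139 to 15048482 with a signal of 22.4, which overlapped the first.

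The sdc-1 start window is printed because it held CTGCGTCTC, a sequence found in many worm promoters and in 106 of 696 thresholded windows (15.2%), against 515 of 29981 pooled windows (1.72%). The same sequence was in the peak at the start of dpy-30, which is printed beside it. The windows are chrX:16275297-16275447 and chrV:12191034-12191184, on the plus strand, from RefSeq. Capitals mark CTGCGTCTC and the hexamers AGAGAC and CGTCTC on either strand. CGTCTC is part of CTGCGTCTC, and AGAGAC on the other strand reads GTCTCT and overlaps it.
sdc-1 start peak: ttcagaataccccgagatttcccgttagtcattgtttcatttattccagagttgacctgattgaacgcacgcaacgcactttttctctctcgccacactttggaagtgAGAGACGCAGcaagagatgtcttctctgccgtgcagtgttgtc
dpy-30 start peak: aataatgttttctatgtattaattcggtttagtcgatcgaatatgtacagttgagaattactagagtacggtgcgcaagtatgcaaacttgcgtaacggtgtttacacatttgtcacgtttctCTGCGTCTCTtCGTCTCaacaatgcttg
The other 6 start windows of members held none of these sequences. In promoters, taken as 250 bases before to 50 after the 5′ end of each gene, CTGCGTCTC was in 2.93% of 19973 and in none of the 10 members, since the copies at sdc-1 and dpy-30 lay farther upstream. Of the members, AGAGAC was in the promoter of dpy-26 only (14.4% of all promoters) and CGTCTC in that of sdc-3 only (11.2%). Within 10 kb of the members, further copies of CTGCGTCTC lay at dpy-27 and mix-1. At dpy-27, 1 copy was in the pooled peak at rank 2608 near the start of amx-1. The other copies at dpy-27 and all those at mix-1 lay in no pooled peak.

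4 members encode condensin subunits. DPY-27 is the SMC protein found only in the X-bound complex of the worm, and its gene had the highest start peak of the 10 in the pooled list and in replicate 1. In replicate 2 the start peaks of mix-1 and sdc-1 ranked higher. The gene (WBGene00001086, chromosome III, 3813018 to 3819679, minus strand) had an intergenic peak from 3820090 to 3820433, with the summit 583 bp upstream of the start. The pooled signal was 55.1 at rank 830, just below the lowest thresholded signal of 58.3. In replicate 1 the signal was 44.0 at rank 505, and in replicate 2 it was 20.8 at rank 2194. With the 714 highest peaks of replicate 1 in place of the thresholded list, dpy-27 was thus the only member with such a peak at its start. The matching share of all genes is not given here. For the thresholded list itself it was 3.48%. The window is chrIII:3820187-3820337, printed from RefSeq on the plus strand to set it beside those of sdc-1 and dpy-30, and no capitals appear because none of the sequences searched was in it.
dpy-27 start peak: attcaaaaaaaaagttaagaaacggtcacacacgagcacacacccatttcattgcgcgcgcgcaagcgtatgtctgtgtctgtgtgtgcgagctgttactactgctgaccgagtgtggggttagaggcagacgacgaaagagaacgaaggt
Upstream of it, a pooled peak with its summit 236 bp from the start of amx-1 had a signal of 35.0 at rank 2608 and also lay in the dpy-27 window. The nearest thresholded peak was 11.2 kb from dpy-27 with a signal of 102, just outside the 10 kb limit.

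MIX-1 is an SMC protein that this complex shares with the condensins of mitosis and meiosis. The gene mix-1 (WBGene00003367, chromosome II, 10824246 to 10841424, plus strand) had a peak over its start from 10824038 to 10824381, with the summit 36 bp upstream. The pooled signal was 52.4 at rank 948. It was 27.6 at rank 1640 in replicate 1 and 25.5 at rank 863 in replicate 2. A start of R06F6.12 was also within 1000 bp of this summit. Of the 11 pooled peaks in the mix-1 window, 7 overlapped a peak in both replicates. 3 pooled peaks had summits in introns of mix-1, with signals of 33.4, 25.5 and 17.3.

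DPY-28 is a regulatory subunit of condensin. The gene dpy-28 (WBGene00001087, chromosome III, 10763131 to 10777076, plus strand) lay between the 2 highest peaks of the set, and neither had dpy-28 as its nearest start. The first, from 10783080 to 10783423, was 6004 bp downstream of dpy-28, in an intron of ptr-19 and 1371 bp inside it. Its signal was 181 at rank 25, with 125 at rank 15 in replicate 1 and 61.5 at rank 43 in replicate 2. The other, from 10759069 to 10759412, was 3719 bp upstream of dpy-28, with its summit 66 bp upstream of the start of tasp-1. Its signal was 131 at rank 74, with 92.0 at rank 58 in replicate 1 and 43.2 at rank 127 in replicate 2. A start of K01G5.10 was also within 1000 bp of that summit.

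The start of dpy-28 itself had a weaker peak 254 bp upstream, over a UTR of tasp-1, with a pooled signal of 30.2 at rank 4262. The highest peak at the start was at rank 8591 in replicate 1, 382 bp inside the gene, and at rank 10197 in replicate 2, 281 bp upstream. The windows of the 2 thresholded peaks are chrIII:10783177-10783327 and chrIII:10759166-10759306, the latter ending where an annotated UTR begins. They are printed from RefSeq on the plus strand as the strongest sites near any member. The capitals mark AGAGAC, the only match to the sequences searched. Their G+C content was 43.7% and, over the full tasp-1 window, 60.3%, against 37.1% at the xol-1 upstream summit.
ptr-19 intron peak: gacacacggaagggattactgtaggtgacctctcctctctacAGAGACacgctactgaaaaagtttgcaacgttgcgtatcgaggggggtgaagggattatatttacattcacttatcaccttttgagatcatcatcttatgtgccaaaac
tasp-1 start peak: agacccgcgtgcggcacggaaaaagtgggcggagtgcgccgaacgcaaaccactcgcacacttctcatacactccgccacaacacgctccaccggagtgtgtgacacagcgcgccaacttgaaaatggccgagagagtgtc

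DPY-26 is the kleisin subunit that closes the condensin ring. The gene dpy-26 (WBGene00001085, chromosome IV, 12445801 to 12451335, minus strand) had no peak within 1000 bp of its start in any list. Its window of 25.5 kb held 1 pooled peak, 6350 bp downstream in an intron of clec-185, with a signal of 16.04 at rank 26879 and no overlapping peak in either replicate. Replicate 1 had no peak in the window. Replicate 2 had 4 peaks, the highest at rank 12107, and 1 of them, at rank 12467, lay in an intron of dpy-26. The gap between pooled peaks that held the gene was 24.1 kb, with place 41 by length of 5158 on chromosome IV. In replicate 1 it was 44.1 kb, with place 3 of 5074.

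The other 2 members act with the complex. DPY-21 is a demethylase that acts on histone H4 of the X chromosomes. The gene dpy-21 (WBGene00001080, chromosome V, 17936282 to 17949193, minus strand) had 16 pooled peaks in its window, as did dpy-28, and 8 that overlapped the gene, more than any other member. The highest, with a signal of 45.2 at rank 1339, lay 2365 bp upstream and had its summit 219 bp from the start of Y59A8B.24. Its replicate ranks were 957 and 12114. Within the gene the highest was intronic, from 17940045 to 17940388, with a signal of 35.1 at rank 2588. Its replicate ranks were 3208 and 17737. At the start the pooled peak had a signal of 19.8 at rank 16538. The highest start peaks of the replicates, at ranks 3524 and 4957, lay 899 bp and 2 bp from the start and so at different places.

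DPY-30 is a small subunit shared with the COMPASS histone methyltransferases. The gene dpy-30 (WBGene00001088, chromosome V, 12191519 to 12192385, plus strand) had an intergenic peak with its summit 410 bp upstream, with a pooled signal of 31.3 at rank 3761. Replicate 1 had it at rank 2460 (signal 22.8), and replicate 2 had no peak within 1000 bp of the start. Over the whole window, replicate 1 had 9 peaks and replicate 2 had 2. The highest pooled peak in the window, with a signal of 41.0 at rank 1699, was in an intron of ogdh-2 and 880 bp from the start of ZK836.3, and it too had an overlap in replicate 1 alone.

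The starts were then compared across the lists. A pooled summit lay within 1000 bp of a start for 8 of the 10 members, against 52.5% of all protein-coding genes. The count was 8 in replicate 1 (52.2% of all genes) and 7 in replicate 2 (53.4%). The highest start peak was among the 3000 highest pooled peaks for 4 members, dpy-27, mix-1, sdc-1 and sdc-3, where 11.9% of all genes had such a summit. For sdc-1, dpy-27 and mix-1 the start peak was also among the 3000 highest in both replicate lists. For sdc-3 it was so in replicate 1 alone. The matching shares of all genes in the replicate lists are not given here, so these replicate counts have no background beside them.

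**Figure D2:**
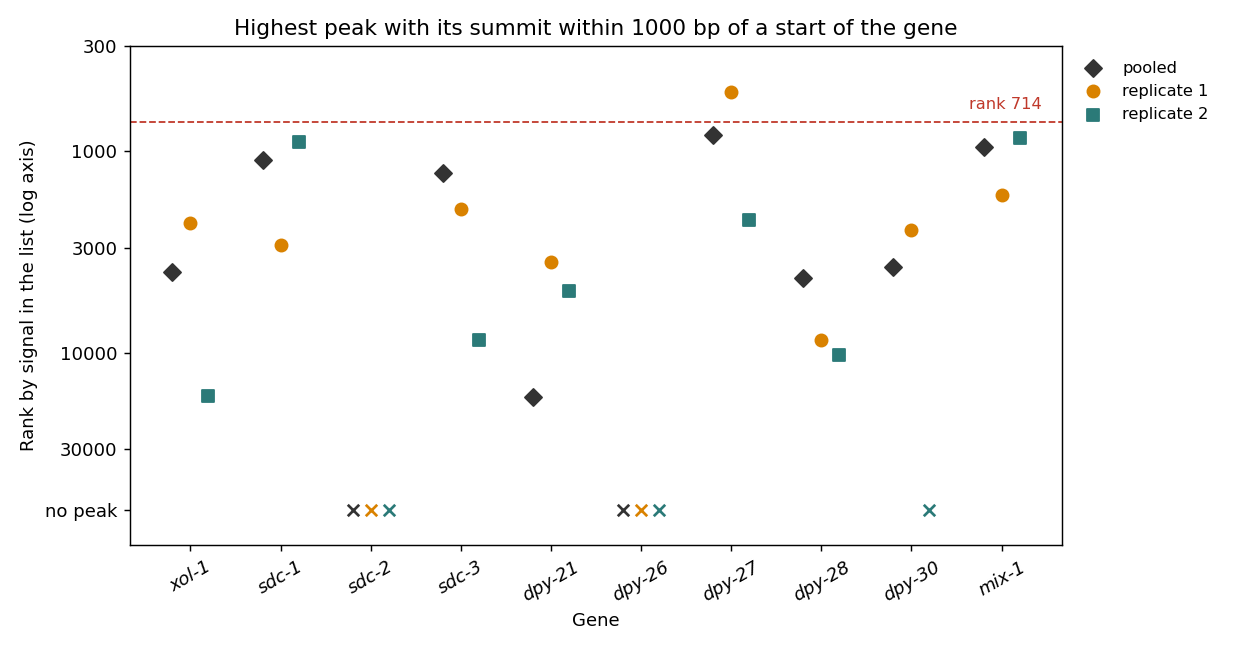
Rank by signal (log axis, rank 1 highest) of the highest peak with its summit within 1000 bp of a start of each gene, in the pooled list and the 2 replicate lists. The dashed line marks rank 714, which only dpy-27 in replicate 1 passes, at rank 505; crosses mark genes with no such peak, which are sdc-2 and dpy-26 in every list and dpy-30 in replicate 2.

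Replicate support was then counted for all 84 pooled peaks. Of these, 38 (45.2%, 95% Wilson interval 35.0 to 55.9, for counting error of peaks only) overlapped a peak in both replicates by at least 1 bp, where 36.5% of all 29981 nuclear pooled peaks did. 19 overlapped a peak of replicate 1 alone, 21 of replicate 2 alone and 6 of neither. Some overlapping pooled peaks, as at the starts of sdc-1 and sdc-3, took support from the same replicate peak. The 84 are therefore not independent, and the interval is likely too narrow. The share differed between members. It was 9 of 16 at dpy-28, 7 of 16 at dpy-21, 7 of 11 at mix-1 and 4 of 7 at dpy-27, and 1 of 9 at dpy-30. At sdc-3 it was 3 of 5 and at dpy-26 0 of 1. On X it was 4 of 10 at xol-1, 2 of 8 at sdc-1 and 1 of 1 at sdc-2. With the 714 highest peaks of replicate 1 in place of the thresholded list, 3 members (xol-1, dpy-27 and dpy-28) had a peak within 10 kb, against 15.5% of all genes. With those of replicate 2 it was 2 (xol-1 and dpy-28), against 15.3%.

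The nearest protein-coding start to the summit was that of the member for 25 of the 84 peaks (29.8%). Over the 10 kb windows of all protein-coding genes it was that of the gene for 22.2% of 134329 pairs of a gene and a pooled peak. By annotation, 38 summits were intergenic, 35 in introns, 4 in exons outside UTRs and 7 in UTRs, and 20 lay in the member itself. Intergenic here means outside protein-coding genes. The member shares were 45.2% intergenic, 41.7% in introns, 4.76% in exons and 8.33% in UTRs, beside 45.04%, 34.6%, 12.1% and 8.27% of the pairs over all genes. Peaks shared by neighbouring genes count for each of them there. For dpy-28 the member was nearest for 4 of 16 peaks, for mix-1 for 1 of 11 and for dpy-21 for 7 of 16.

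X-linked and autosomal members were compared by the number of pooled peaks per 10 kb of gene and window. It was 2.36 for the 3 X-linked members and 3.15 for the 7 autosomal members, beside 2.96 for all X-linked and 2.89 for all autosomal genes. The members of each class spread far more than the classes differed. On X they ran from 0.325 at sdc-2 through 2.99 at sdc-1 to 4.33 at xol-1, and on the autosomes from 0.392 at dpy-26 to 4.86 at dpy-21. Without sdc-2, in an alternative chosen after its values were seen, the X-linked value was 3.61, and without dpy-26 the autosomal value was 3.54. In replicate 1 the 2 classes had 2.98 and 3.10 peaks per 10 kb and in replicate 2 they had 2.85 and 3.59. No difference by linkage beyond the spread of the genes was therefore seen. The density at sdc-2 was reached or undercut by 57 of 2731 X-linked genes (2.09%), and that at dpy-26 by 604 of 17242 autosomal genes (3.50%).

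**Figure D3:**
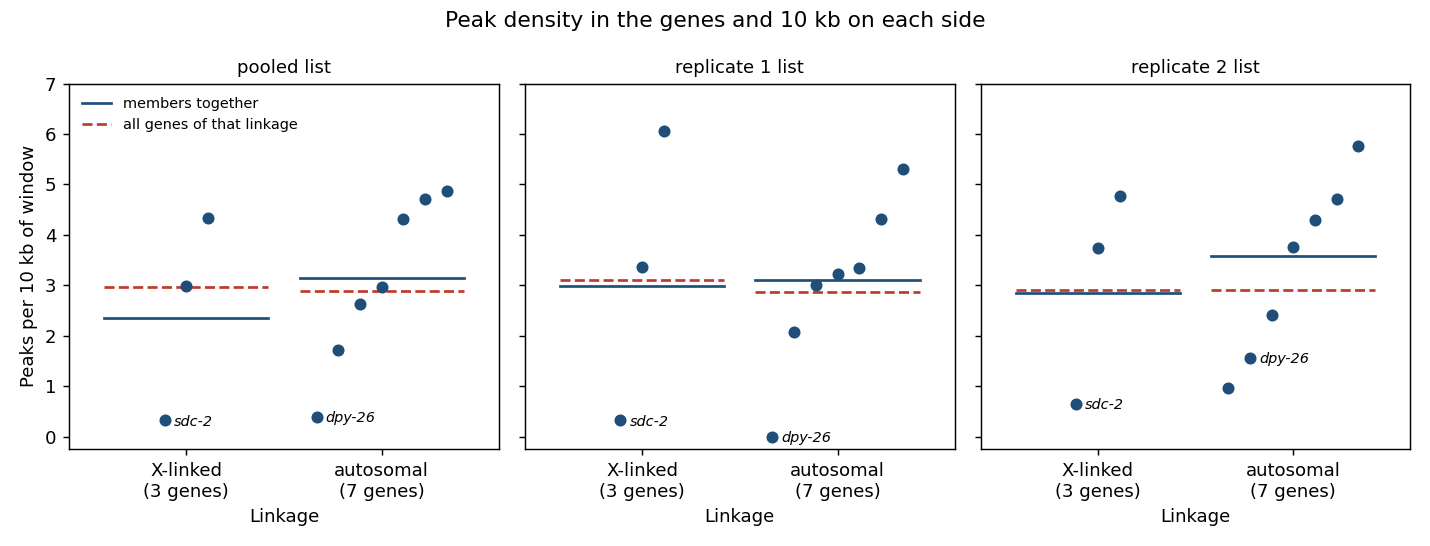
Peaks per 10 kb of gene and 10 kb on each side, for the 3 X-linked and 7 autosomal genes, in the pooled list and the 2 replicate lists. Points are genes, solid lines the members of a class together and dashed lines all protein-coding genes of that class; in the pooled list the points run from 0.325 (sdc-2) to 4.33 on X and from 0.392 (dpy-26) to 4.86 on the autosomes.

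The G+C content of the windows ran from 33.3% at dpy-28 to 38.3% at dpy-27. Across the 10 members, its Spearman's rho with the pooled peak density was -0.49, as a description of 10 windows in the same libraries. The windows with few peaks, sdc-2 (36.2%) and dpy-26 (37.1%), were inside this range. The number of peaks per window in replicates 1 and 2 had a rho of 0.761 across the 10 members, whose windows differ in length.

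Other genes of the pathway were counted from a list of 28, of which 26 matched a symbol and sex-2 and sea-3 did not. 6 of the 26 had a thresholded peak within 10 kb, beside the 15.5% of all genes. 2 were overlapped by one, beside 1.82% of all genes. The 26 had a median length of 5.16 kb against 2.03 kb over all genes, and gene length was not matched. The 2 overlapped genes both encode parts of histone H3 methyltransferase complexes. At set-16, a methyltransferase gene of the MLL type, the peak was 152 bp upstream of the start with a signal of 142 at rank 60, and its replicate ranks were 57 and 90. At ash-2, a COMPASS subunit gene, it was in the gene, 85 bp upstream of one of its annotated starts, with a signal of 65.6 at rank 522, and its replicate ranks were 2867 and 178.

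At the other 4 genes the thresholded peaks were nearer to another gene's start. The peak near tra-2, the membrane receptor of the sex determination pathway, had a signal of 93.4 and its summit 44 bp past a start of ceh-38. A second thresholded peak near tra-2, with a signal of 69.1, overlapped the first, and its summit was 103 bp past another annotated start of ceh-38. The peak near cfp-1, a COMPASS subunit gene, had a signal of 86.2 and lay 469 bp from the start of ccar-1. That near sex-1, a nuclear receptor gene of the X dose signal, had a signal of 72.0 and lay 198 bp from the start of nucb-1. That near mab-3, a downstream gene of male traits, had a signal of 60.6 and lay 8 bp from the start of nos-3. At her-1, the male signal that the SDC proteins repress, the highest pooled peak within 10 kb had a signal of 50.1 at rank 1066 and was nearest to rbx-1. The condensin genes capg-2 and hcp-6 had no pooled peak within 10 kb. The remaining 24 of the 26 had at least 1, which is near the 96.8% of all genes. For 8 of those 24 the highest peak was nearest to the gene's own start, and the matching share of all genes is not given here. The median rank of the highest peak was 1428, near the 1195.5 of the 10 members.

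**Figure D4:**
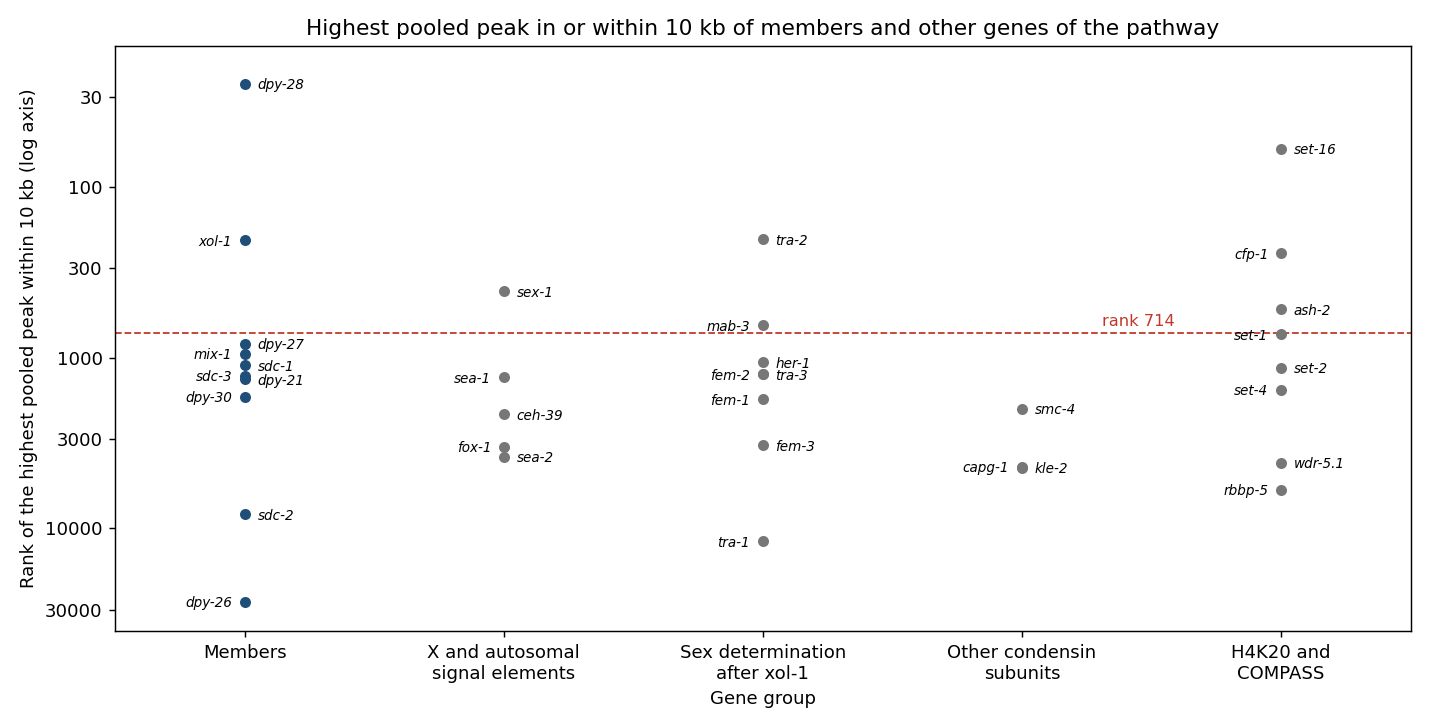
Rank (log axis, rank 1 highest) of the highest pooled peak in or within 10 kb of the 10 members and of the 24 listed genes of the pathway that had one. Above the dashed line at rank 714 lie xol-1 and dpy-28 of the members and sex-1, tra-2, mab-3, set-16, cfp-1 and ash-2 of the list.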

How the data were processed

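The 4 peak lists on ce11 are in the narrowPeak layout. Per the listing that the authors deposited, alignments and a control alignment gave peaks plus background for each replicate and for the pool. These went into an irreproducible discovery rate analysis, from which the thresholded list came. The sources used here do not name the aligner, the peak caller or the threshold. The signal of each peak and its −log10 q are the authors' deposited values. Lists on ce10 were not used, since no annotation of that build was at hand, and no coordinate was converted. 0 per-sample columns were left unmapped.

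Peaks were placed against the Ensembl 115 annotation of WBcel235 and the RefSeq sequence of that assembly. A distance runs from the peak interval to the gene span and is 0 where they overlap. Starts are those of protein-coding transcripts, and positions count from 1. Summits were located against protein-coding genes only, so one called intergenic may lie in a gene of another type. A peak near 2 genes counts for both. Replicate support means an overlap of at least 1 bp. Sequences were searched on both strands in 75 bp on each side of a summit.

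The members, the pathway list and the sequences searched were chosen with earlier results of these data known, so no test was made. All 10 members are named. Listed genes are named where they have a thresholded peak within 10 kb, and others were named after their values were seen. Alternatives were other distances, summits in place of intervals, stricter lists and each replicate alone. The counting was tested on simulated data. Tables were handled with pandas 2.3.3 and numpy 2.4.6 in Python 3.11.15, intervals came from scipy 1.17.1 and plots from matplotlib 3.10.9.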

Additional observations from a re-analysis of the deposited data

How the results depend on the processing

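Of 39 alternative values, 26 stayed near the reported one and 13 did not. Near means within 1.5 times a count (the same where it was 0), within the 95% Wilson interval of a share, or within 1 SD between the replicates' values of a density. That SD was 0.0877 per 10 kb for X-linked and 0.343 for autosomal members, from 2 values each, so the rule is strict for X. The count of 0 members overlapped by a thresholded peak was the same under the 4 alternatives tried. Within 20 kb in place of 10 kb, 4 members had a thresholded peak in place of 2. The share of all genes within 20 kb is not given here, and the 15.5% within 10 kb is no background for that count. Members with a thresholded summit within 1000 bp of a start numbered 0 to 1 with either replicate alone, and the 1 was dpy-27. The matching shares of all genes in the replicate lists are not given here. For X-linked members, the density of 2.36 pooled peaks per 10 kb was 2.85 to 2.98 with either replicate alone. It was 1.49 with the 15000 highest pooled peaks, 1.98 within 5 kb, 2.77 within 20 kb and 3.61 without sdc-2. For autosomal members, 3.15 became 3.10 to 3.59 with either replicate alone, 1.84 with the 15000 highest peaks, 3.75 within 5 kb and 3.54 without dpy-26. The last value of each class was chosen after seeing the data. Support in both replicates fell from 45.2% to 15.5% when the 10000 highest peaks of each replicate alone could give it, which is fewer peaks by construction. The causes of the other differences were not tested. No paired analysis was possible because there is 1 group and no result comes from a test. Depth is unknown, so how far it limits the weak peaks was not tested.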
